A study of Rattus norvegicus with 9 samples.

Results

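The comparison set 3 cartilage libraries from rats treated with Shengyu decoction against 3 cartilage libraries from untreated rats with knee osteoarthritis (KOA), across every gene of the deposited table. These 6 libraries are 6 of the 9 in the series, and their members were chosen by the sample labels alone. Of 32043 genes in the table, 13898 had a mean FPKM of at least 0.5 over the 9 libraries and were tested. FPKM is a read count scaled by gene length and by the library size that the authors used. The tested genes were read in separate sets, since 7490 of them had reads in all 6 libraries whereas 2178 were listed at 0 in model 1 and model 3.

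All 6 libraries came from animals with the same injury, the modified Hulth operation on the left knee of male Sprague–Dawley rats, with the medial collateral and anterior cruciate ligaments excised, the medial meniscus removed, and forced daily activity afterwards. The animals were 8 weeks old when they were obtained. The SYD-H group, named after the high-dose arm of the study, then received an extract of 7 botanical drugs by gavage for 4 weeks, and joints were collected 8 weeks from the operation. No dose stands in the labels of the treated libraries, and no vehicle for the model group is stated. In the 3 control libraries, quoted below only as reference levels, the joint capsule was opened and closed. The labels do not say that libraries came from separate animals, so every p-value measures the spread between these samples, which may be partly technical.

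Articular cartilage is built by chondrocytes, which fold and secrete large amounts of type II collagen and aggrecan through the endoplasmic reticulum (ER). Below it lies subchondral bone, where osteoblasts lay down type I collagen and osteoclasts dissolve mineral and matrix with acid and proteases. When the folding load of the ER rises, the sensors IRE1, PERK and ATF6 raise chaperones and the machinery that removes misfolded proteins. In osteoarthritis cartilage is lost, bone below it is remodelled, and growth factors held in the matrix are released.

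The labelled tissue was checked against its markers. Col2a1, the main collagen of cartilage, was at 606, 39.0 and 56.1 FPKM in model 1 to 3, and at 609, 430.5 and 42.4 FPKM in SYD-H 1 to 3, against 348 to 8323 in the control libraries. Col1a1, the main collagen of bone and fibrous tissue, was higher in each of these 6 libraries, at 1211, 4944 and 691 FPKM in the model and at 6597, 5957 and 3991 FPKM in SYD-H. The osteoblast product Bglap, which encodes osteocalcin, reached 454 to 2121 FPKM in the model and 1907 to 3445 FPKM in SYD-H. Skeletal muscle genes summed to 412, 152 and 1712.5 FPKM in model 1 to 3, and to 105, 1816 and 1038 FPKM in SYD-H 1 to 3. Markers of bone and muscle thus stood beside those of cartilage, and fewer cells of a type cannot be told apart from less RNA per cell. The part of muscle in the differences below was not tested. The extraction text of the labels speaks of retina, yet of 18 photoreceptor genes 1 passed the filter (Rom1), and the summed level of the list was 0 to 6.16 FPKM in these libraries.

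The libraries differed before any gene was compared. Recovered reads numbered 16139834 to 19510537 per library, but 90.7%, 39.5% and 81.3% of them were mitochondrial in model 1 to 3, against 23.7%, 34.7% and 72.7% in SYD-H 1 to 3. The mean share was 26.8 percentage points lower in SYD-H, which an exact permutation test did not separate from the spread (two-sided p = 0.20, the smallest possible being 0.10), and the groups overlapped. This left 1744769, 11106680 and 3611325 nuclear reads in the model and 12322343, 12745818 and 5153851 in SYD-H. The library size behind the FPKM values was not the read total. It was 0.19, 1.44 and 0.34 times the recovered reads in model 1 to 3, and 1.65, 1.46 and 0.61 times in SYD-H 1 to 3. Tested genes listed at 0 made up 34.8%, 9.13% and 25.6% of the model libraries and 5.27%, 4.69% and 12.0% of the SYD-H libraries. Model 2 stood apart from its own group. Across the tested genes, its log2(FPKM + 1) values correlated with SYD-H 1, 2 and 3 at r = 0.89, 0.91 and 0.81, and with model 1 and 3 at r = 0.64 and 0.71, a description over genes that share each library's depth. Of the nuclear genes with reads in all 6 libraries, 50.5% lay within the SYD-H range in model 2, against 25.8% in model 1 and 28.0% in model 3.

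**Figure D1:**
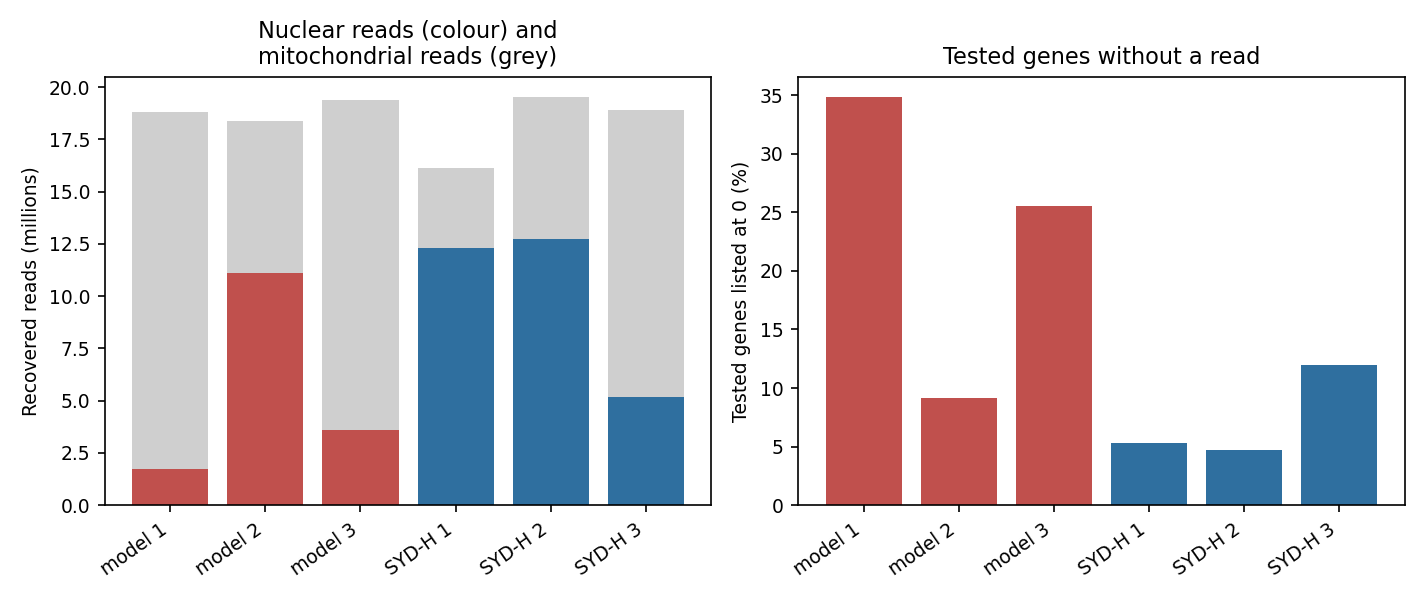
Recovered reads (left), split into nuclear reads in colour and mitochondrial reads in grey, and the percentage of the 13898 tested genes listed at 0 (right), for the 3 model and 3 SYD-H libraries. Model 1 and model 3 had 1744769 and 3611325 nuclear reads and the largest shares of genes at 0 (34.8% and 25.6%). Model 2 lay close to SYD-H 1 and 2 in nuclear reads. Its share of genes at 0 (9.13%) lay between those of SYD-H 1 (5.27%) and SYD-H 3 (12.0%).

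With the study's criteria for differentially expressed genes (DEGs), an unadjusted p-value under 0.05 and a log2 fold change beyond 1 in either direction, 577 of the 13898 tested genes were called, or 4.15%. Of these, 503 were higher (3.62%) and 74 lower (0.532%) in SYD-H. No gene had an adjusted p under 0.05 in limma (0 of 13898, smallest adjusted p 0.723, with 731 genes at an unadjusted p under 0.05), so each DEG below is a call on the unadjusted p alone, with an adjusted p of 0.723 in limma for every DEG named. Fold changes are differences of mean log2(FPKM + 1), SYD-H minus model, and understate the change of low genes. The share of higher calls among DEGs, 87.2%, was 98.1% after rescaling to TPM, 61.3% after quantile normalization, 61.9% with a trend on gene length removed, and 55.6% with model 2 alone as the model group. TPM counts the mitochondrial reads in its total, and it moved the median of all tested genes from 0.22 to 1.22 on the log2 scale.

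The calls fell unevenly between the sets of genes. Of the 503 higher DEGs, 326 were at 0 in model 1 and model 3, 69 were at 0 in another set of libraries (1.66% of such genes), and 108 had reads in all 6. Of the 74 lower DEGs, 62 had reads in all 6 libraries. Among the 7490 genes with reads everywhere, 170 were therefore called (2.27%), with 108 higher (1.44%) and 62 lower (0.828%), and the median log2 fold change was 0.01. The groups did not overlap for 831 of these genes (11.1%), of which 415 were higher (5.54%) and 416 lower (5.55%) in SYD-H. Single libraries moved the counts. Without model 2 there were 2495 DEGs, 1085 of them with reads in all 6 libraries, against 379 and 100 without model 3, 315 and 38 without SYD-H 1, and 372 and 85 without SYD-H 2.

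Genes with reads in all 6 libraries came first. Of the 2674 genes in this set that the table labels protein-coding and that had a mean of at least 10 FPKM, 68 were DEGs whose groups did not overlap, 48 of them higher and 20 lower. The largest rise was that of Sdc4, a heparan sulfate proteoglycan of the cell surface that helps cells to hold matrix and growth factors. Sdc4 was at 10.1, 9.40 and 2.90 FPKM in model 1 to 3 and at 75.4, 26.4 and 25.5 FPKM in SYD-H 1 to 3, against 4.88 to 21.3 in the control libraries. Every SYD-H library lay above every model and control library. It rose by 2.32 ± 0.60 (log2 fold change ± SE, n = 3 per group, adjusted p = 0.723 in limma), and it was called in each of the 6 fits that left out 1 library.

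Itga10, Mrc2 and Ctsf are described next among the 10 largest rises of this set. Itga10, the integrin subunit with which chondrocytes bind type II collagen, was at 2.56, 11.6 and 3.27 FPKM in the model and at 38.4, 12.4 and 15.4 FPKM in SYD-H (log2 fold change 1.83 ± 0.64). Mrc2, an endocytic receptor that takes collagen fragments into the cell, was at 4.23, 18.1 and 6.04 FPKM and at 34.6, 25.6 and 19.6 FPKM (1.60 ± 0.54). Ctsf, a cysteine protease of the lysosome, was at 10.2, 9.87 and 1.34 FPKM and at 39.1, 20.7 and 15.7 FPKM (1.89 ± 0.70). In Itga10, model 2 lay within 1 FPKM of the lowest SYD-H library, so that the gap between the groups was narrow, whereas Ctsf separated all 3 model libraries from SYD-H. The calls of Itga10 and Mrc2 held in 2 of 6 fits that left out a library, and that of Ctsf in 4. The receptor phosphatase Ptprs (2.07 ± 0.80) and the arrestin-domain adaptor Arrdc1 (1.92 ± 0.59) also rose. Ptprs was at 18.6 FPKM in model 2 and at 19.2 FPKM in the lowest SYD-H library, and its call held in 1 of 6 fits that left out a library.

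Among the 20 lower genes, Thap12, a nuclear protein with a DNA-binding THAP domain, had the smallest unadjusted p-value. Thap12 was at 23.5, 13.8 and 27.9 FPKM in model 1 to 3 and at 6.18, 6.09 and 4.67 FPKM in SYD-H, against 7.97 to 9.43 in the control libraries. It fell by 1.73 on the log2 scale (SE 0.35), with no overlap, in each of the 6 fits that left out a library and also with model 2 alone as the model group. Psenen, a subunit of the gamma-secretase protease, was at 72.9, 37.3 and 45.7 FPKM and at 23.9, 24.5 and 11.2 FPKM, and fell by 1.36 (SE 0.41). Its call held in all 6 such fits, but its difference was 0.25 after rescaling to TPM, where the median of all genes was 1.22. Dctpp1, which hydrolyses modified dCTP, fell by 1.68 (SE 0.67), from 39.4, 9.69 and 12.6 FPKM to 2.01, 9.39 and 4.77 FPKM. The spliceosome core subunit Snrpg (fell by 1.53), the ER ubiquitin ligase Rnf5 (fell by 1.27) and the endosomal syntaxin Stx7 (fell by 1.21) stood at 0.057, 0.29 and 0.33 under TPM, each above 0 but below that median of all genes. The uncharacterized LOC108351584 was at 15.1, 14.2 and 15.4 FPKM in the model and at 3.74, 3.77 and 9.94 FPKM in SYD-H, and stood at 0.062 under TPM.

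Entries that are named as pseudogenes but labelled protein-coding in the table stood on both sides. Atp5mk, which encodes a small subunit of the mitochondrial ATP synthase, was at 8.22, 33.9 and 15.1 FPKM in the model and at 34.7, 53.9 and 90.9 FPKM in SYD-H, whereas its pseudogene Atp5mk-ps2 was at 124, 28.9 and 75.6 FPKM and at 5.74, 18.5 and 24.5 FPKM. The parent rose by 1.70 (SE 0.58) and the copy fell by 2.14 (SE 0.70), and reads that match both could have been assigned to either. The same uncertainty holds for Tmsb10-ps6, which rose by 1.72, and Hmgn2-ps4, which fell by 2.23. ENSRNOG00000067007, a locus without a name, fell by 2.01.

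Gene length moved with these differences. The 62 lower DEGs with reads in all 6 libraries had a median length of 1826.5 bases, against 3083.5 for the 108 higher DEGs and 3160.5 for all 7490 genes. In the shortest of 4 equal groups of these genes by length (60 to 2018 bases) the median log2 fold change was -0.18, with 24 genes higher and 32 lower, and in the longest group (4772 to 41093 bases) it was 0.12, with 22 higher and 2 lower. Model 1 and model 3 exceeded model 2 by a median of 0.31 and 0.47 in the shortest group, and their difference from it was -0.20 and -0.18 in the longest. The same difference between SYD-H 3 and SYD-H 2 ran from 0.18 to -0.14. The part of length and of RNA quality in the calls was not tested beyond the fit with the length trend removed, which called 250 of these genes, 70 higher and 180 lower. That fit also moved the median of these genes from 0.01 to -0.23, and of all tested genes from 0.22 to -0.014, so its calls are counted from a lower centre.

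ER folding was the list with the most members whose groups did not overlap upward. Of 30 tested ER chaperones and folding enzymes, 4 rose, 0 fell and 26 did not pass, and 11 were higher in every SYD-H library than in any model library. Of all tested genes, 3.62% rose, 0.532% fell and 7.89% were higher without overlap, and of all genes with reads in all 6 libraries 1.44% rose. These shares are the background for the full-fit counts of the lists that follow. For list counts without model 2 the background is 2495 of the 13898 tested genes called. It is 423 of 13898 without model 1 and 379 without model 3. Without SYD-H 1, 2 and 3 it is 315, 372 and 518. The 4 that rose had reads in all 6 libraries. Without model 1 or SYD-H 1 the list held 0 calls, without model 3 or SYD-H 2 it held 1, and without model 2 it held 18. The list's median log2 fold change was 0.99, and 0.88 over its 21 members with reads in all 6 libraries, of which 20 were positive, against 0.22 and 0.01 for all genes of the same sets. Hsp90b1, the ER member of the HSP90 family, was at 26.3, 65.2 and 23.8 FPKM in model 1 to 3 and at 82.1, 69.8 and 67.3 FPKM in SYD-H. It rose by 1.06 ± 0.42, with model 2 just under the SYD-H libraries and within the control range of 53.3 to 82.8 FPKM. Dnajc3, a co-chaperone of BiP that also restrains the kinase PERK, was at 3.44, 6.81 and 6.84 FPKM and at 13.4, 12.7 and 13.2 FPKM (1.12 ± 0.35). The disulfide isomerase Pdia6 (1.14 ± 0.44) and Cnpy3, which folds Toll-like receptors together with Hsp90b1 (1.02 ± 0.39), rose as well. Without model 1 the list median was 0.54, and with model 2 alone as the model group it was 0.03. The calls of Hsp90b1 and Pdia6 held in 1 of 6 fits that left out a library, that of Cnpy3 in 2 and that of Dnajc3 in 4. With the length trend removed, these 4 differences were 0.76 to 0.89 and under the fold limit, while the list median stood 0.76 above the median of all tested genes, against 0.77 before. Hspa5, which encodes BiP, the main ER chaperone, was at 29.5, 60.2 and 44.0 FPKM and at 89.5, 89.7 and 63.3 FPKM, with no overlap, and its difference of 0.88 ± 0.33 stayed under the fold limit.

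The promoters of 3 of these chaperones are shown because they carry the ER stress response element, the letters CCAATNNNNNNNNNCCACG, through which ATF6 and XBP1 act together with NF-Y. On either strand, the element stood in 7 of the 27 list members that had a promoter in RefSeq (25.9%), against 22 of all 33469 promoters (0.0657%). Beside the 3 shown, these were Calr, Canx, Creld2 and Ero1b, none of which was called. Of the called members, Cnpy3 did not hold these letters in its window, and Pdia6 had no entry among the promoters used here. A match describes letters in the window of 250 bases before to 50 bases after the gene start and is no test of a factor. The 3 promoters below are from RefSeq on GRCr8, 5′ to 3′ on the strand of the gene, with the element in capitals.
Hspa5 (plus strand, chr3:38452766-38453065): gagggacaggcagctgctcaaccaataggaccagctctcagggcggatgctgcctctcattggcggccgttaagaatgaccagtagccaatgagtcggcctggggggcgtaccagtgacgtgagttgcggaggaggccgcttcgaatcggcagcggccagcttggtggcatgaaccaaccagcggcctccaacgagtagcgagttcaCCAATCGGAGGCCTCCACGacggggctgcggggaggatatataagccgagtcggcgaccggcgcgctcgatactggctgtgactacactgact
Hsp90b1 (minus strand, chr7:23012244-23012543): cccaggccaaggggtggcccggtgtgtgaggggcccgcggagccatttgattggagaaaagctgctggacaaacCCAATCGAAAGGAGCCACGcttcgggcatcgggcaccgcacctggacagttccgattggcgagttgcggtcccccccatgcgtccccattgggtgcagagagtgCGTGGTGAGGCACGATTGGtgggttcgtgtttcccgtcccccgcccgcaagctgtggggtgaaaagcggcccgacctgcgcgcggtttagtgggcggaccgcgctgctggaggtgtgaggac
Dnajc3 (plus strand, chr15:102432417-102432716): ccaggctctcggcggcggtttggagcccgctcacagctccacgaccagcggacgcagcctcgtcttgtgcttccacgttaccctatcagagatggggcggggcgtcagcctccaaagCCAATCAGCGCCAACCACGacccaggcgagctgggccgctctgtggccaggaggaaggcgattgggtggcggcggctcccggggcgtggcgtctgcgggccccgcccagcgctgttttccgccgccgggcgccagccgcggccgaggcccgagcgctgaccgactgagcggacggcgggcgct

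Of 27 genes of ER-associated degradation, the removal arm of the same response, 3 rose, 1 fell and 23 did not pass (median 0.46), and 18 of 23 with reads in all 6 libraries were positive. The median was 0.30 without model 1, 0.27 without SYD-H 1 and -0.08 with model 2 alone as the model group. Syvn1, the ubiquitin ligase HRD1 at the centre of this pathway, was at 4.06, 4.66 and 5.62 FPKM in the model and at 10.8, 11.6 and 11.8 FPKM in SYD-H, with 21.5 to 28.1 FPKM in the control libraries. It rose by 1.11 ± 0.30 in all 6 fits that left out a library, and with model 2 alone as the model group. With the length trend removed, which lowered all genes as stated above, its difference was 0.86 and under the fold limit. Without any 1 library other than model 2 the list held 1 call, Syvn1, and without model 2 it held 8. The lectin Erlec1 (1.52 ± 0.59, with model 2 above SYD-H 2) and the HRD1 partner Fam8a1 (1.38 ± 0.49) rose, and the member that fell was Rnf5, described above, whose call held in 1 of 6 fits that left out a library. Of 45 genes of ER translocation and export, 0 were called in either direction (18 without model 2), and 34 of 42 with reads in all 6 libraries were positive.

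Of 21 genes of the unfolded protein response, 4 rose and 0 fell, with 1 call without model 3 and 2 without SYD-H 1 or SYD-H 3. Of the 4, 1 had reads in all 6 libraries, against 1.44% of all such genes that rose. The list median of 0.60 was 0.28 without model 1 and -0.13 with model 2 alone as the model group. Ddit4, a stress-induced inhibitor of mTOR, was at 16.7, 24.0 and 22.8 FPKM in the model and at 105, 55.0 and 39.4 FPKM in SYD-H, against 5.70 to 15.9 in the control libraries. It rose by 1.50 ± 0.40, with no overlap, and in all 6 fits that left out a library. The ER-bound factor Atf6b (1.99 ± 0.81), the secreted glycoprotein Stc2 (1.78 ± 0.68) and the cell death gene Bbc3 (1.76 ± 0.55) rose from model groups that held zeros. The transcription factors at the head of the branches were not called. Xbp1 was at 19.6, 30.1 and 27.3 FPKM and at 35.6, 44.0 and 28.4 FPKM (0.47 ± 0.29), Atf4 differed by 0.23 ± 0.23, and Atf6 by 0.58 ± 0.70.

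Of 30 fibrous and bone matrix genes the median log2 fold change was 1.47, and 25 of 27 with reads in all 6 libraries were positive, yet 1 rose and 0 fell. This was Col12a1, a collagen that links fibrils, at 0.533, 23.0 and 0.50 FPKM in the model and at 47.8, 34.6 and 12.2 FPKM in SYD-H (2.90 ± 1.17). Model 2 exceeded SYD-H 3, so the groups overlapped. The same held for Col1a1, whose difference of 1.75 ± 0.91 did not pass. The list held 18 calls without model 2 and 5 without SYD-H 3, and 0 without any 1 of the other 4 libraries. Its median was 0.79 without model 1 and -0.12 with model 2 alone as the model group.

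Of 30 cartilage matrix genes, 2 rose and 0 fell (median 1.39, and 0.84 over 20 members with reads in all 6 libraries). Col11a2, which with type II collagen forms the thin fibrils of cartilage, was at 28.9, 59.1 and 18.3 FPKM in the model and at 153, 78.5 and 70.0 FPKM in SYD-H, without overlap, against 42.2 to 505 in the control libraries (1.55 ± 0.51). Col27a1, a fibrillar collagen of growth cartilage, was at 4.55, 8.48 and 2.42 FPKM and at 18.8, 14.8 and 11.2 FPKM (1.47 ± 0.46). Neither Col2a1 (1.01 ± 1.37) nor Acan, the gene of aggrecan (1.46 ± 1.47), was called. Col2a1 in model 1 was level with SYD-H 1, and Acan was at 34.8, 10.7 and 0.629 FPKM in the model and at 77.8, 43.2 and 3.12 FPKM in SYD-H, so both groups ranged widely. Cytl1, a secreted chondrocyte factor, showed how far a single library reached, with 1136 FPKM in SYD-H 1 and 1.27 to 17.5 FPKM in the other 5 libraries. The median of this list was 0.60 with 0 calls without SYD-H 1, and it held 11 calls without SYD-H 3. With model 2 alone as the model group, the median was 0.90.

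Of 27 tested collagen processing enzymes, which finish collagen in the ER, 2 rose, 0 fell and 25 did not pass (3.62% of all tested genes rose), while the differences of all 23 with reads in all 6 libraries were positive (median 1.00). P3h3, a partner of the collagen lysyl hydroxylase, was at 5.41, 24.3 and 13.8 FPKM in the model and at 32.2, 37.6 and 29.8 FPKM in SYD-H (1.35 ± 0.51). Fkbp10, a collagen chaperone, was at 27.0, 54.3 and 19.0 FPKM and at 80.3, 82.1 and 49.3 FPKM (1.15 ± 0.44). In both, model 1 and model 3 were the low libraries, and with model 2 alone as the model group the median of the list was 0.02. The list held 15 calls without model 2 and 0 without model 1, model 3, SYD-H 1 or SYD-H 2.

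Of 20 osteoclast genes, 6 rose, 1 fell and 13 did not pass (median 1.36, and 0.21 with model 2 alone as the model group). Of the 6 rises 4, and the fall, were in genes with reads in all 6 libraries, where 1.44% of all genes rose and 0.828% fell. The list held 16 calls without model 2, 2 without SYD-H 3 and 1 without any 1 of the other 4 libraries. Acp5, the tartrate-resistant acid phosphatase that marks osteoclasts, was at 177, 522 and 139 FPKM in the model and at 691, 624 and 769 FPKM in SYD-H, against 186 to 350.5 in the control libraries (1.56 ± 0.54). Mmp9, a gelatinase that osteoclasts secrete and that neutrophils store in granules, was at 72.9, 143 and 99.4 FPKM and at 409, 269 and 202 FPKM. It rose by 1.47 ± 0.39, and in all 6 fits that left out a library. The fusion receptor Dcstamp (2.50 ± 0.90), the costimulatory receptor Oscar (1.47 ± 0.60), the proton pump subunit Tcirg1 (1.43 ± 0.53) and the transcription factor Nfatc1 (1.39 ± 0.50) rose, each with model 2 near the SYD-H libraries. Oscar was at 0 in model 1 and model 3, and Dcstamp was at 0 in model 1. The gene that fell was Sh3pxd2a, a scaffold of podosomes, from 11.1, 8.23 and 20.9 FPKM to 6.47, 4.23 and 5.17 FPKM (fell by 1.12, SE 0.42, and 0.33 under TPM, where the median of all tested genes was 1.22). Tcirg1 and Sh3pxd2a were named after their values were seen. Apart from Mmp9, each of these 7 calls held in 1 of 6 fits that left out a library, the fit without model 2. Ctsk, the collagenase of osteoclasts, was at 364, 1071 and 204 FPKM and at 1507, 1067 and 1186 FPKM, and did not pass (1.53 ± 0.65).

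Of 29 lysosomal genes, 4 rose and 0 fell (median 0.92, or 0.51 without model 3 and 0.21 with model 2 alone as the model group, with 0 calls without SYD-H 1, 1 without model 3 or SYD-H 2, 2 without model 1 and 13 without model 2), and 24 of 27 with reads in all 6 libraries were positive. Man2b1, the lysosomal alpha-mannosidase, was at 5.18, 14.0 and 7.75 FPKM in the model and at 30.4, 23.7 and 17.4 FPKM in SYD-H (1.38 ± 0.42). The peptidase Tpp1 (1.23 ± 0.47), the cathepsin Ctsz (1.13 ± 0.44) and the hexosaminidase subunit Hexa (1.06 ± 0.44) rose too. Of 30 matrix proteases and inhibitors, Mmp9, the membrane protease Adam8 (1.33 ± 0.42) and the protease inhibitor Reck (1.45 ± 0.53) rose, and 0 fell, with 15 calls without model 2. Adam8 was at 0 in model 1 and model 3, so its direction followed from that set. Mmp13, the collagenase of hypertrophic chondrocytes and osteoarthritis, was at 153, 397 and 87.9 FPKM and at 737, 283 and 245 FPKM and did not pass (1.08 ± 0.68). Of 23 osteoblast and osteocyte genes, 0 were called, with a median of 0.82, and 11 were called without model 2. This median was 0.51 without model 3, 1.35 without model 2 and -0.0023 with model 2 alone as the model group.

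Of 38 TGF-beta, BMP and CCN genes, 7 rose and 0 fell (median 0.83), with 3 calls without model 3, 4 without model 1 or SYD-H 1 and 13 without model 2. Of the 7, 4 had reads in all 6 libraries, a set in which 1.44% of all genes rose. The list median was 0.50 without model 1, 1.37 without model 2 and 0.05 with model 2 alone as the model group. Ccn2, a matrix protein induced by TGF-beta and stretch, was at 49.2, 55.3 and 36.8 FPKM in the model and at 407, 97.7 and 89.7 FPKM in SYD-H, against 9.51 to 68.7 in the control libraries (1.70 ± 0.61). Its relative Ccn1 was at 18.3, 27.5 and 11.0 FPKM and at 148, 33.5 and 57.0 FPKM (1.83 ± 0.60). In both genes SYD-H 1 was far above the rest, and model 2 was the highest model library. Fst, or follistatin, which binds activins, was at 0, 5.17 and 1.29 FPKM and at 13.1, 17.4 and 9.47 FPKM (2.53 ± 0.70), and Nog, or noggin, which binds BMPs, was at 0, 0.558 and 0 FPKM and at 4.37, 2.18 and 3.20 FPKM (1.84 ± 0.41). Fst was called in all 6 fits that left out a library. Nog was too, but as a gene at 0 in model 1 and model 3 its direction followed from that choice. Ltbp2, a microfibril protein related to the latent TGF-beta binding proteins, rose by 1.86 ± 0.76, but its groups overlapped (10.5 FPKM in model 2 and 9.44 FPKM in SYD-H 3), and its call held in 1 of 6 fits that left out a library.

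Of 25 immediate-early genes, which respond to stimulation within minutes, 5 rose and 0 fell, and 8 were higher without overlap, against 3.62% and 7.89% of all tested genes. The list held 0 calls without model 3, 1 without SYD-H 1, 2 without model 1, 3 without SYD-H 3 and 8 without model 2. Of the 5, 4 had reads in all 6 libraries, and Gadd45b was at 0 in model 1 and model 3. The list median was 0.72, and 0.14 with model 2 alone as the model group. Beside Ccn1 and Ccn2, these included the AP-1 subunit Fosl2 (1.42 ± 0.57) and the stress gene Gadd45b (2.93 ± 0.88). Of 33 inflammatory mediators, 4 rose and 0 fell (0 calls without model 3 or SYD-H 1). The list median was 0.32, while the median over the 19 with reads in all 6 libraries was -0.16. Nfkbia, the inhibitor of NF-kappaB that NF-kappaB itself induces, was at 30.1, 24.9 and 17.2 FPKM in the model and at 92.5, 39.7 and 43.2 FPKM in SYD-H (1.17 ± 0.41). The macrophage growth factor Csf1 (1.36 ± 0.51), the adhesion molecule Icam1 (2.05 ± 0.80) and the cytokine Il1b (1.16 ± 0.41) rose as well. Il1b stood at 0, 0.790 and 0 FPKM and at 1.87, 0.961 and 2.51 FPKM. Of these 4 genes Nfkbia and Csf1 had reads in all 6 libraries, whereas Icam1 and Il1b were at 0 in model 1 and model 3, and the groups overlapped for Icam1 and Csf1, where model 2 was above SYD-H 3. Tnf was at 0 in all 3 model libraries and above 0 in SYD-H 1 alone, and was too low to be tested.

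Of 35 mechanosensitive and calcium channel genes, 2 rose and 0 fell (3.62% of all tested genes rose), with 10 calls without model 2 and 0 without model 1, model 3 or SYD-H 2. These were the stretch-activated channel Piezo1, at 2.31, 8.17 and 1.06 FPKM in the model and at 10.5, 11.0 and 8.77 FPKM in SYD-H (1.47 ± 0.59), and the cation channel Trpv2 (1.94 ± 0.76). In both, the high model library was model 2, and each call held in 1 of 6 fits that left out a library. Trpv2 was at 0, 4.48 and 0 FPKM in the model and at 6.59, 6.70 and 4.29 FPKM in SYD-H, so its groups overlapped. Of 20 chondrocyte regulators, 3 rose and 0 fell (1 call without model 1), namely Nfatc1, the Hedgehog effector Gli1 (1.62 ± 0.54) and the cartilage transcription factor Sox5. Of these, Nfatc1 had reads in all 6 libraries, while Gli1 and Sox5, like Trpv2 among the channels, were at 0 in model 1 and model 3. Sox5 was at 0 in all 3 model libraries and at 1.01, 0.867 and 1.57 FPKM in SYD-H, which is at least 11.7-fold higher when each model library is set to a floor of 3 reads, a bound for counting error only.

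**Figure D2:**
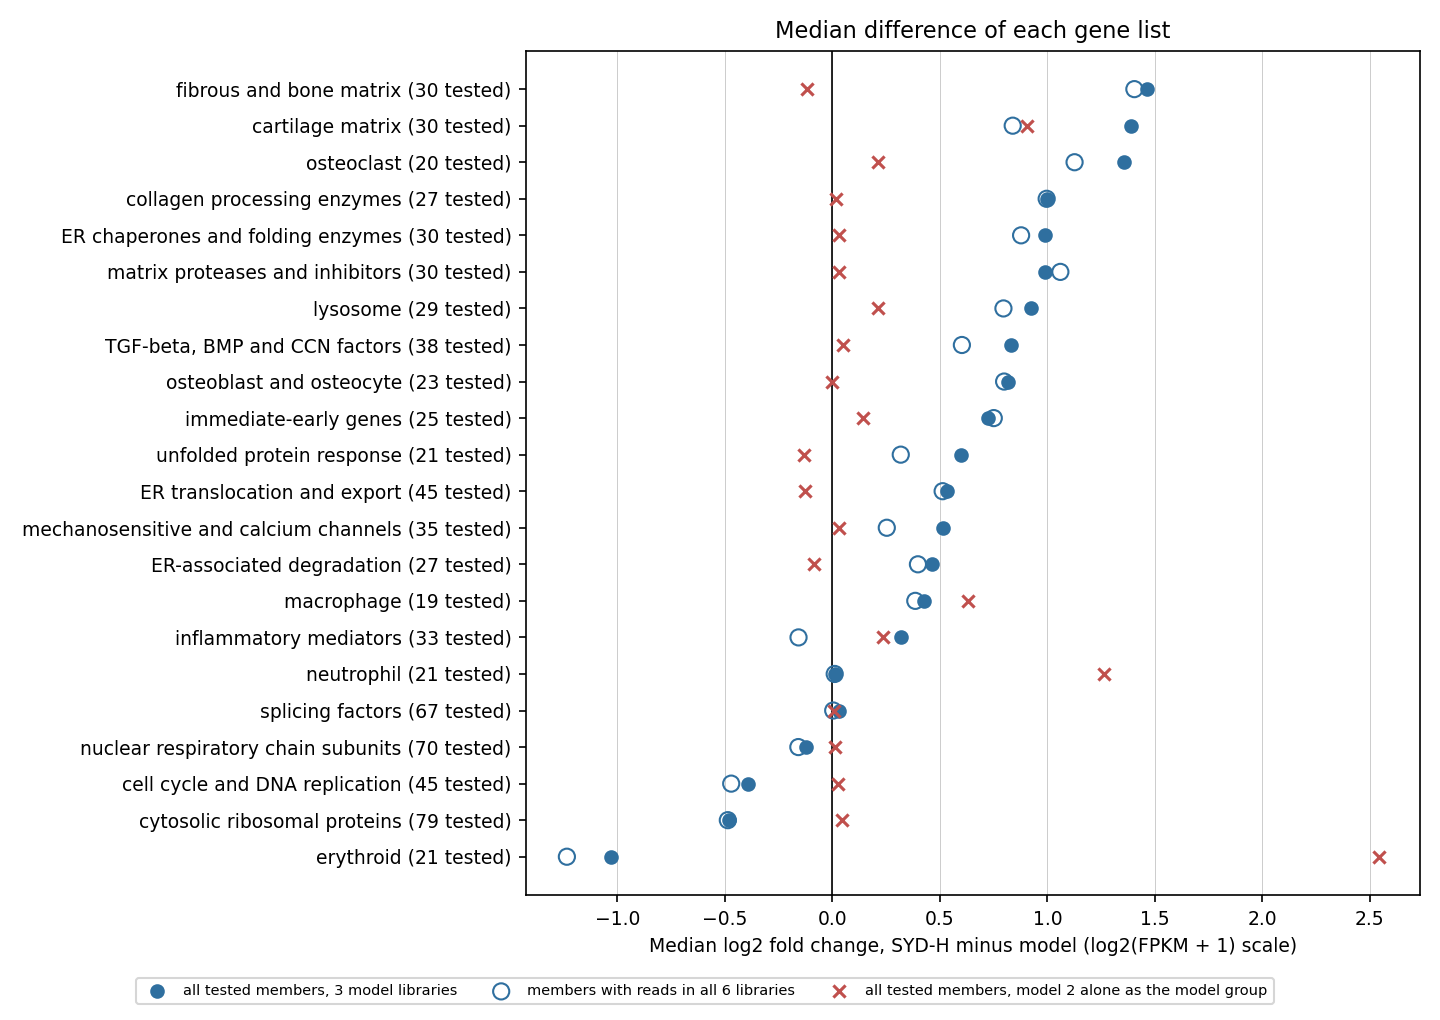
Median log2 fold change of the gene lists shown, a selection that need not hold every list tested (SYD-H minus model, log2(FPKM + 1) scale). Filled points cover all tested members, and open points cover members with reads in all 6 libraries. Crosses cover all tested members with model 2 alone as the model group. ER chaperones and folding enzymes moved from 0.99 to 0.03 and cytosolic ribosomal proteins from -0.48 to 0.04 with model 2 alone, whereas cartilage matrix moved from 1.39 to 0.90 (and to 0.60 without SYD-H 1, not drawn).

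Of 79 cytosolic ribosomal protein genes, 0 passed in either direction, 71 of 74 with reads in all 6 libraries had a negative difference, and 8 were lower in every SYD-H library than in any model library, as were 3.17% of all tested genes. The list's median was -0.48, or -0.70 against the median of all tested genes, but only -0.07 against it under TPM and -0.10 under quantile normalization. Rpl14 was at 169, 127 and 319.8 FPKM in the model and at 76.8, 95.4 and 122 FPKM in SYD-H (difference -0.97 ± 0.41), and was named after its values were seen. These genes are short, with a median length of 1022 bases. Of 45 cell cycle and DNA replication genes, 1 fell. This was Rrm1, a subunit of ribonucleotide reductase, which fell by 1.12 (SE 0.44) and stood at 0.39 under TPM, where the median of all tested genes was 1.22. Of 67 splicing factors, with a median of 0.03, 1 fell (Snrpg). Of 34 mitochondrially encoded genes 0 were called, at a median of -2.10. This median was -1.18 without model 1, -3.37 without model 2, -0.75 under quantile normalization and 0.40 with model 2 alone as the model group. Without model 2, calls numbered 9 among the ribosomal proteins, 5 among the cell cycle genes, 8 among the splicing factors and 14 among the mitochondrially encoded genes. That fit called 2495 of all 13898 tested genes.

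**Figure D3:**
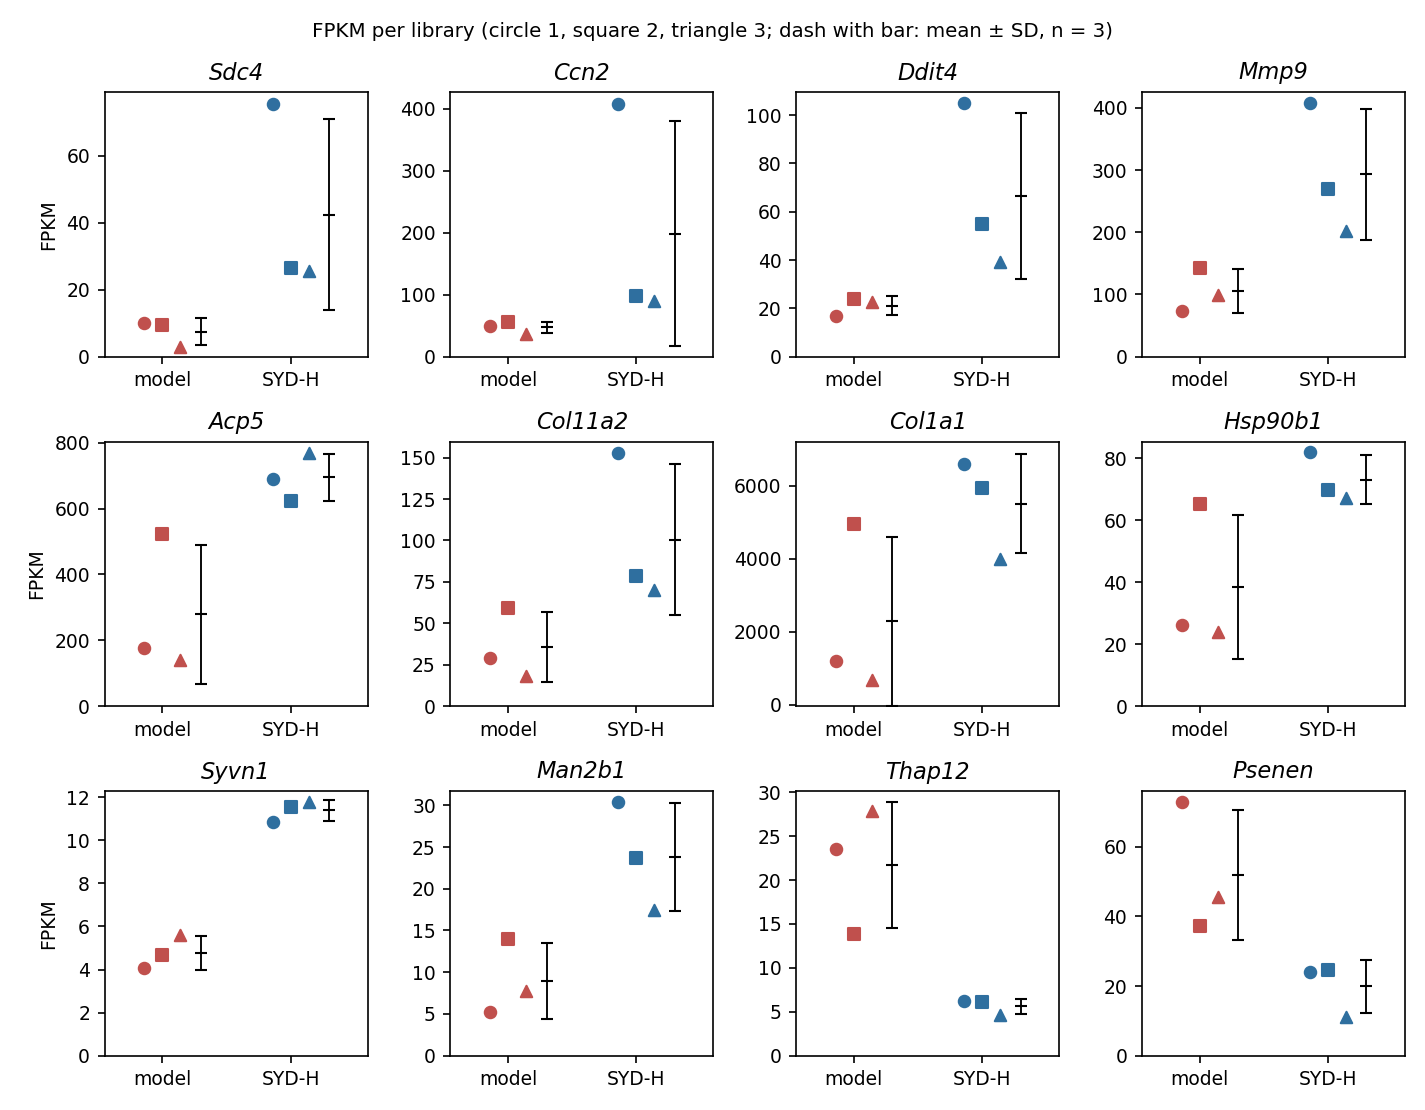
FPKM of 12 genes in each library (circle, square and triangle for library 1, 2 and 3, model in red and SYD-H in blue), with the mean ± SD of each group (n = 3) at its right. Sdc4, Ddit4, Mmp9, Syvn1, Thap12 and Psenen separated all 3 model from all 3 SYD-H libraries and were called in each of the 6 fits that left out a library, while for Col1a1 and Hsp90b1 model 2 lay at or near the SYD-H level.

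Markers of blood and marrow cells varied between libraries of the same group. The erythroid and neutrophil sums were lowest in model 2, whereas the macrophage sum was lowest in model 3. The 21 erythroid genes summed to 39683, 356 and 45675 FPKM in model 1 to 3 and to 1439, 2025 and 14203 FPKM in SYD-H, and 9 of the 21 were at 0 in model 2 and none in the other 5 libraries. Hba-a1, an alpha-globin, was at 31685, 243 and 34883 FPKM and at 1075, 1599.6 and 11304 FPKM. None of the erythroid genes was called (0 of 21, and 15 without model 2), and the list median of -1.03 became 2.54 with model 2 alone as the model group and 1.43 under voom on reads. The 22 neutrophil genes in the table summed to 247 to 8333 FPKM in the model and to 1029 to 3774 FPKM in SYD-H, and S100a8 ranged from 46.7 FPKM in model 2 to 4068 in model 1. Of the 21 that were tested, 2 rose, the granule protease Elane (2.11 ± 0.88), which was at 0 in model 3, and Mmp9, described above with the osteoclast genes. Of 19 macrophage genes, 2 rose (5 calls without model 2, and 0 without model 3 or any 1 SYD-H library), the endotoxin coreceptor Cd14 (2.23 ± 0.80) and Csf1r, the receptor of Csf1 (1.57 ± 0.58), and the summed list overlapped between the groups (406 to 910 and 574 to 932 FPKM). The part of these cells in the other differences was not tested.

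The 2178 tested genes at 0 in model 1 and model 3 were set up to be higher in SYD-H by the way the set was formed. Of these, 326 were called (15.0%) and 0 of them lower, a count that is a description. Of the 2177 that are nuclear, 1676 (77.0%) had an SYD-H mean worth at least 3 reads in both of those model libraries, 1031 (47.4%) at least 10 reads and 4 at least 100 reads, while for 501 (23.0%) it lay under the floor of 3 reads in at least 1 of them. Zeros at such expected levels were also common inside the groups. Of genes worth at least 10 reads by the mean of the other libraries of the same group, 27.0% were at 0 in model 1, 20.1% in model 3, 11.0% in SYD-H 3 and 4.79% in SYD-H 1, against at most 0.517% in any control library. In model 2, 1651 of the 2178 genes had reads, and 851 of these (51.5%) lay within the SYD-H range, 487 (29.5%) above it and 313 (19.0%) below it. The median log2 ratio of the SYD-H mean to model 2 was -0.04.

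**Figure D4:**
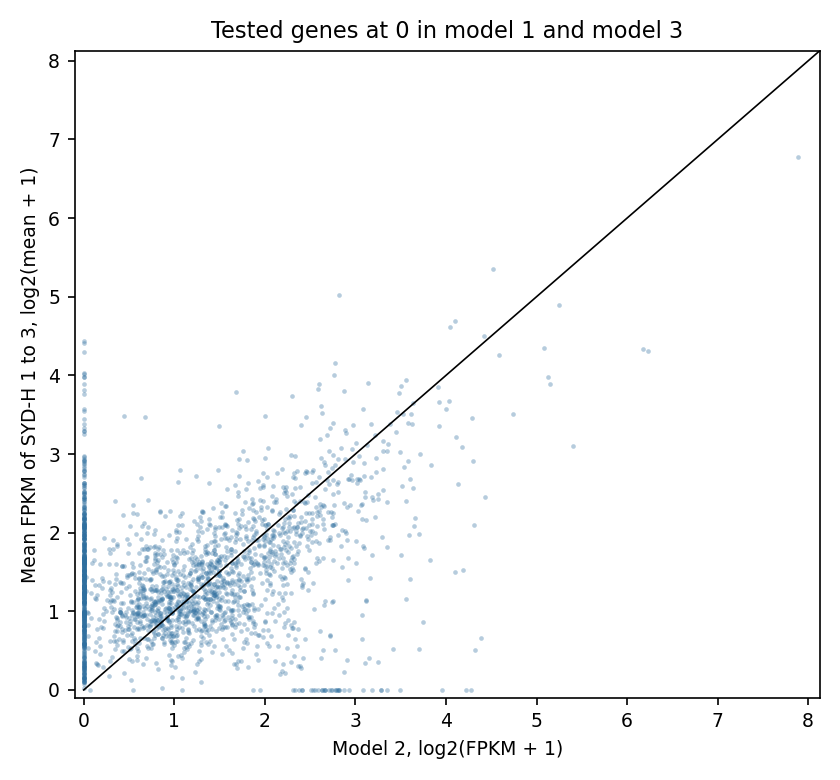
Tested genes listed at 0 in model 1 and model 3, with log2(FPKM + 1) in model 2 on the horizontal axis and log2(mean FPKM of SYD-H 1 to 3 + 1) on the vertical axis, 1 point per gene and the line of equality in black. The 1651 genes with reads in model 2 lie on both sides of the line (median log2 ratio -0.04), and 527 genes stand at 0 on the horizontal axis.

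The genes of this set with the highest SYD-H means differed in where model 2 lay. Gm17651 was at 71.5 FPKM in model 2 and at 11.5, 46.0 and 0 FPKM in SYD-H, so model 2 lay above the treated range. Hrct1, a small membrane protein rich in histidine, was at 16.1 FPKM in model 2 and at 32.1, 10.2 and 32.2 FPKM in SYD-H, so model 2 lay inside the treated range. Arsl, which encodes arylsulfatase L, was at 7.81 FPKM in model 2 and at 16.7, 13.6 and 11.5 FPKM in SYD-H, and the nuclear export factor Nxt1 was at 5.07 FPKM and at 7.17, 11.0 and 23.5 FPKM. Gadd45b was at 5.77 FPKM in model 2 and at 26.0, 8.57 and 10.6 FPKM in SYD-H. Penk, the precursor of enkephalins, was at 0 in all 3 model libraries and at 57.4, 3.52 and 0 FPKM in SYD-H, so that SYD-H 1 decided its mean (difference 2.68 ± 1.39, not called). In the opposite direction, few genes were above 0 in every model library and at 0 in at least 2 SYD-H libraries. Aldh1a2, which makes retinoic acid, was at 5.27, 0.607 and 5.03 FPKM in the model and at 0, 0 and 1.28 FPKM in SYD-H, and the epidermal keratin Krt2 was at 3.56, 0.306 and 2.56 FPKM and at 0, 0 and 0.808 FPKM. Neither passed, and model 1 and model 3 were the high libraries in both. LOC100910864, a mitochondrial carrier-like gene, was at 4.74, 0.879 and 2.79 FPKM and at 0.175, 0 and 0 FPKM, a difference of -1.71 ± 0.48 whose direction the choice of these genes had fixed.

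The named calls differed in how far they rested on single libraries. Of 83 named genes that were called, 16 had groups that overlapped, among them also Fkbp10, Stc2, Tpp1, Tcirg1, Csf1r, Elane and Rrm1. Of the 83, 14 were called in all 6 fits that left out a library and 9 with model 2 alone as the model group. Of the 14, 6 had reads in all 6 libraries (Sdc4, Ddit4, Mmp9, Syvn1, Thap12 and Psenen), and 5 were at 0 in model 1 and model 3, where the direction followed from the choice of the set. Of the 6, Thap12 and Syvn1 were also called with model 2 alone as the model group. Leaving out model 1 ended 53 of the 83 named calls, model 3 ended 61, SYD-H 1 ended 58, SYD-H 2 ended 46 and SYD-H 3 ended 45, whereas leaving out model 2 ended 6. For comparison, of all 577 DEGs 204 were kept without model 1, 187 without model 3 and 515 without model 2. Without SYD-H 1, 2 and 3, 224, 272 and 261 of the 577 were kept. The named calls that were kept numbered 30, 22 and 77 without model 1, 3 and 2, and 25, 37 and 38 without SYD-H 1, 2 and 3. Without model 2 the median was 1.44 for ER chaperones and folding enzymes, 1.88 for osteoclast genes and 1.54 for collagen processing enzymes, and without model 1 it was 0.54, 1.04 and 0.71. For cartilage matrix it was 1.27 without model 2 and 1.42 without model 1.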

How the data were processed

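Cartilage RNA was sequenced in 9 libraries (TruSeq RNA kit per the labels), 3 per group. The authors deposited FPKM per gene. The submitters' processing notes name HISAT2 2.0.5 and hg38, a human build, and the roles of both are not given in the sources used here, so positions in the table are not printed. Groups came from the labels. FPKM times gene length was a whole multiple of a single step per library in 100% of values (tolerance 0.1), which gave reads and the authors' library size. Genes with a mean of at least 0.5 FPKM were tested with limma 3.58.1 in R 4.3.3 (lmFit, eBayes with trend, two-sided, 6 libraries) on log2(FPKM + 1), with Benjamini-Hochberg adjustment, as DEGs at p under 0.05 and a log2 fold change beyond 1. The fit was tested on simulated data. Single values had exact permutation tests (scipy 1.17.1). Floors of 3 reads cover counting error only.

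The 36 gene lists, the members and the tests were chosen with earlier results of these data known. Named genes were 8 of the study's genes, the 10 largest rises and 10 largest falls among protein-coding DEGs with reads in all 6 libraries, a mean of at least 10 FPKM and no overlap, the 8 genes at 0 in model 1 and 3 with the highest SYD-H means, 5 genes seen in every model library and at 0 in at least 2 SYD-H libraries, and per list the 3 highest members and up to 4 DEGs. Names on more than 1 entry were left out of lists, and 3 entries were renamed by their descriptions. Alternatives were other pseudocounts, filters and scalings, voom on reads, all 9 libraries, a replicate block, and each library left out. A fit with a lowess trend on gene length removed and a fit with model 2 alone were added after the data were seen. Promoters came from RefSeq (GRCr8).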

Additional observations from a re-analysis of the deposited data

How the results depend on the processing

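Counts depended on which libraries of both groups entered, and the counts in each direction also on the scaling. Leaving out 1 library at a time gave 315 to 2495 DEGs (577 with all) and 38 to 1085 among genes with reads in all 6 libraries (170 with all), with both lowest counts without SYD-H 1 and both highest without model 2. The mitochondrial share stayed 16.7 to 42.4 points lower in SYD-H in these comparisons. By itself, however, model 2 had a share of 39.5%, below the SYD-H mean of 43.7%. Model 2 alone as the model group gave 356 DEGs and 36 genes with an adjusted p under 0.05 in limma, all lower in SYD-H, with the spread of the SYD-H libraries assumed for the lone library. No gene had such a p in any other fit (0 in each, with 400 to 2910 genes at an unadjusted p under 0.05 where all model and SYD-H genes of at least 0.5 FPKM were kept). The cause was not tested. DEGs numbered 1220 with all 9 libraries in the fit, 91 at a mean of at least 10 FPKM, where 3020 genes were tested, and 1078 with voom. Among genes with reads in all 6 libraries they numbered 378, 82 and 175 in these fits, 50 under TPM, all higher, and 278 under quantile normalization. Of these calls 108 were higher and 62 lower in the reported fit, 129 and 149 under quantile normalization, 70 and 180 with the length trend removed, and 17 and 21 without SYD-H 1. Quantile normalization moved the median of these genes from 0.01 to -0.09 and the length trend moved it to -0.23. Under TPM, which moved the median of all genes to 1.22, Snrpg (0.057), Psenen (0.25), LOC108351584 (0.062), Rnf5 (0.29), Stx7 (0.33), Rrm1 (0.39), Mrpl42 (0.37) and Sh3pxd2a (0.33) stood above 0, though below that median. With the replicate number as a block, 526 DEGs were called. The numbers were not taken to pair the samples, since deviations of same-numbered libraries correlated at -0.07, 0.19 and 0.14, and library 1 of SYD-H correlated best with model 2 (0.23). A pseudocount of 0.1, no filter, non-mitochondrial rescaling and the length trend kept the total count within 1.5 times. Depth limits model 1 most, where 3 reads of a gene of 1 kb are worth 0.825 FPKM.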
